A study of Mus musculus with 2 samples.

Results

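The genes described here are 10 regulators of cell cycle arrest: the Cdk inhibitors Cdkn1a, Cdkn1b, Cdkn1c, Cdkn2a, Cdkn2b and Cdkn2c, p53 itself (Trp53), its inhibitor Mdm2, and the p53 targets Eda2r and Ccng1. Every non-control probe that the array's design names for them was taken, which gave 18 probes and 62 spots of the array's 41168 probes. Of the 18 probes, 15 stood well above background on 1 array or more and 14 on both. These 15 probes measured 9 of the 10 genes, among 19251 genes measured on the whole array. Cdkn1c was not well above background with either RNA.

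RNA came from a pair of mouse neural progenitor cell lines, strain 129/Ola, with 1 array for each. Both were made from N31, a line that descends from induced pluripotent stem cells and in which doxycycline turns on c-Myc, Klf4, Sox2 and Oct3/4, a set that reprograms somatic cells to pluripotency. The Pax6 line carried CAG-Pax6-IP, which drives Pax6, a transcription factor with a paired domain that patterns the eye and forebrain, and the EGFP line carried CAG-EGFP-IP, which drives a green fluorescent protein. Both constructs use the ubiquitous CAG promoter and were brought in with the Tol2 transposon, and the labels do not say whether each line is a clone. Both lines had received doxycycline for 24 h, so the EGFP cells had the same treatment, and no sample without doxycycline was analysed here to show how far the 4 factors were induced. At that time the submitters had seen the cell shape change in EGFP cells alone.

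The p53 protein is a transcription factor that damage, oncogene activity and other stresses stabilise. It switches on genes that halt the cell cycle or bring on cell death, among them its own inhibitor Mdm2. Cdk inhibitors act in 2 families: the Ink4 proteins bind Cdk4 and Cdk6 alone, and the Cip/Kip proteins bind a wider range of cyclin-Cdk complexes, so that the retinoblastoma protein stays unphosphorylated and E2f target genes stay off. The Ink4a-Arf locus and the p53 pathway are known barriers to the reprogramming of somatic cells.

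Cdkn2c and Eda2r were past 2-fold with the higher signal in Pax6 cells, and no member was at least 2-fold lower. The largest difference in the other direction was that of Cdkn1a, 1.76-fold lower on the Pax6 array. The other 6 measured members, Trp53, Mdm2, Cdkn2a, Cdkn2b, Cdkn1b and Ccng1, differed by less than 0.20 on the log2 scale on their brightest probe. Probe 2 of Cdkn1b and probe 2 of Ccng1 differed by more, at -0.41 and -0.23. The 2 higher members stand beside a background of 452 of all genes (2.35%) past 2-fold upward, 467 (2.43%) past 2-fold downward and 919 (4.77%) in either direction. The members were chosen with earlier results of these data known, so setting them beside all genes is a description and no test. At 1.5-fold, the members counted 2 higher and 1 lower, where 5.91% of all genes were higher, 7.76% lower and 13.7% either. The median difference of the 9 members was 0.15, against -0.01 over all genes, and their median size regardless of direction was 0.16, against 0.18. With 1 array per line there is no replicate check, no p-value is given, and this number of arrays bounds how precise the values are. Signals are the software's processed intensities before scaling. Differences are log2 of the Pax6 signal minus log2 of the EGFP signal after each array was scaled to its 75th percentile, and the error after ± is the scanner software's measurement error of 1 difference, not a spread between cultures. In bulk RNA, fewer cells of a type and less RNA per cell cannot be told apart.

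**Figure D1:**
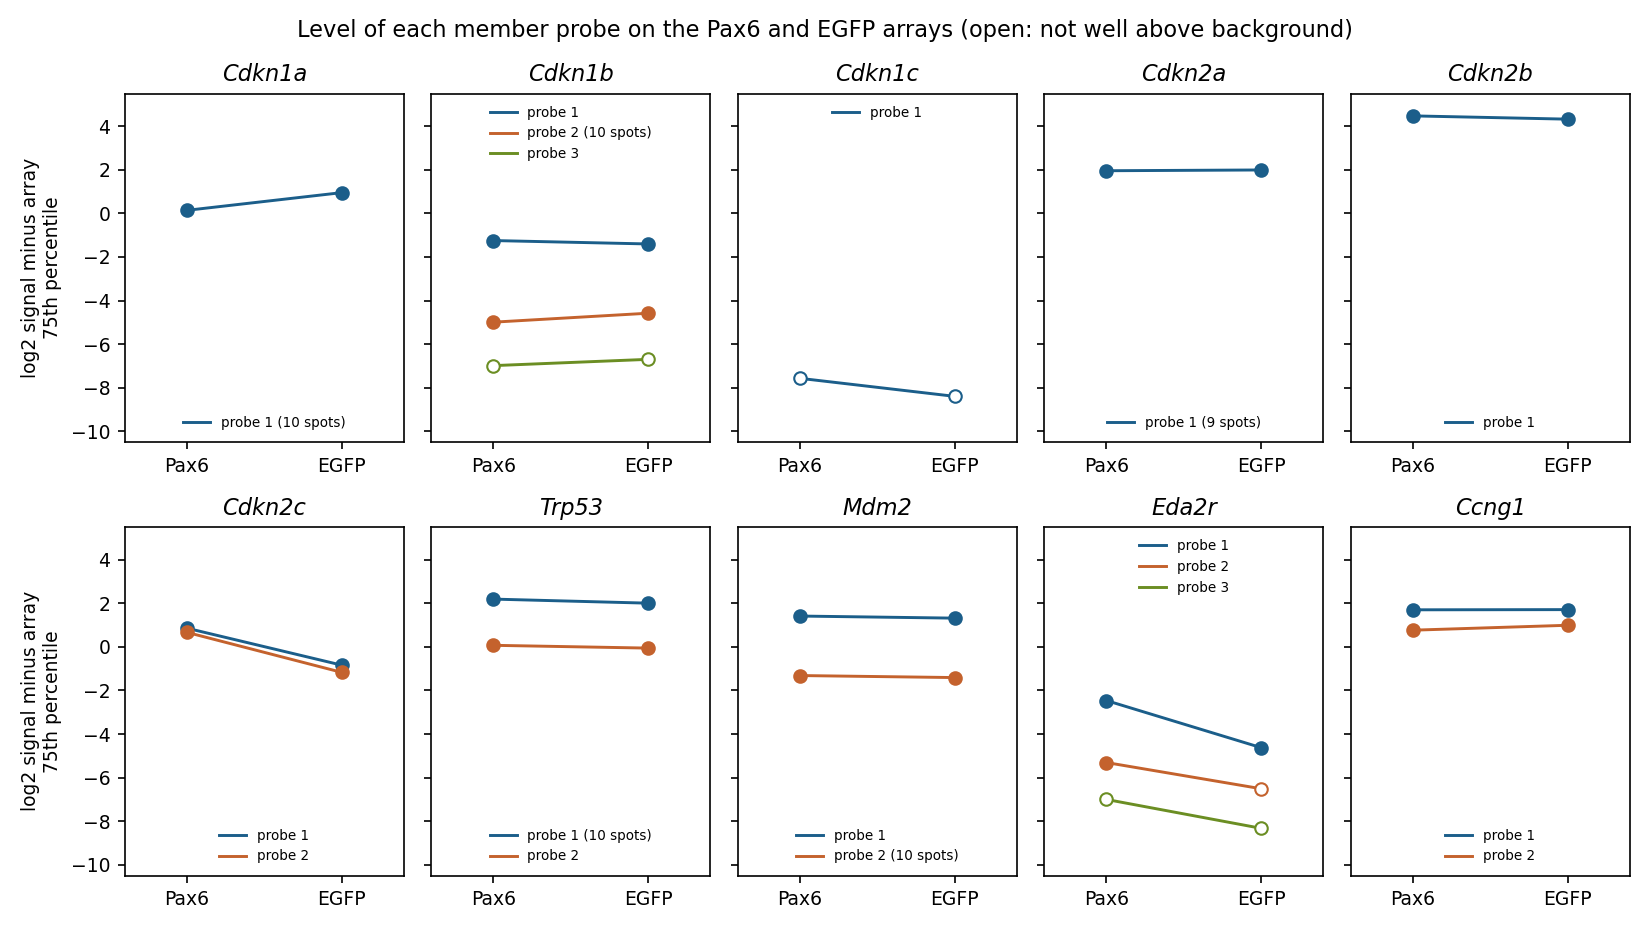
Log2 signal minus the array's 75th percentile (vertical axis) of each member probe on the Pax6 array (left) and the EGFP array (right), 1 panel per gene, with open points where the probe was not well above background. The lines of Cdkn2c and Eda2r lie higher on the Pax6 side and that of Cdkn1a lower, and heights of different probes are not comparable.

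The array as a whole is described in ranges. The share of the 43379 non-control spots that stood well above background was 67.2% on the Pax6 array and 64.7% on the EGFP array, none was saturated, and both arrays lay on 1 slide. The 8 spike-in controls differed by -0.05 to 0.09. Of 12 neural progenitor markers 11 were measured, Hes5 was not well above background on either array, and Sox1 was dim at 18.7 on the Pax6 array and 19.2 on the EGFP array. Among these markers Slc1a3 (-3.69) and Nes (-1.66) were lower on the Pax6 array and Sox2 (1.74), which is also a doxycycline-driven factor, was higher. The array's probes for the 4 factors did not read alike in the lines. Sox2 gave 307 on the Pax6 array and 79.2 on the EGFP array, and Klf4 gave 12071 on the Pax6 array and 4846 on the EGFP array, a difference of 1.10 ± 0.20. Pou5f1, which encodes Oct3/4, gave 14.3 on the Pax6 array and 7.99 on the EGFP array, where it was not well above background. Myc gave 29158 on the Pax6 array and 25520.2 on the EGFP array, a difference of -0.02 ± 0.20, with probes that did not share a sign. Whether these probes read the transgenes is not known, so the values do not show the induction, and the part of the factors in the members' differences was not tested. Pax6 itself gave 822 on the Pax6 array and 557 on the EGFP array, a log2 difference of 0.35 ± 0.20; whether its probes lie within the transgene is not known, so this does not check the overexpression. All 7 measured epithelial markers of 8 listed were at least 2-fold lower, with a summed signal of 25394 on the Pax6 array and 60154 on the EGFP array, and Cldn4 was not well above background. The 8 fibroblast markers gave 3 higher and 3 lower, with summed signals of 62513 on the Pax6 array and 94808 on the EGFP array. Most of that sum was Col1a2, at 46506 on the Pax6 array and 90871 on the EGFP array (-1.18). Higher were Fap (at least 4.27), Dcn (2.95) and Col3a1 (1.93), and also lower were Col1a1 (-2.33) and Thy1 (at most -2.14). The 7 measured pluripotency markers of 8 summed to 406 on the Pax6 array and 457 on the EGFP array, with 0 higher and 1 lower. Neuron markers, 5 measured of 6, summed to 3963 on the Pax6 array and 4901 on the EGFP array, with 0 higher and 1 lower. Astrocyte markers, 4 of 4, summed to 793 on the Pax6 array and 416 on the EGFP array, with 1 higher, and oligodendrocyte markers, 5 of 6, to 3995 on the Pax6 array and 5417 on the EGFP array, with 1 higher and 1 lower. Blood markers, 1 of 4, summed to 280.1 on the Pax6 array and 346 on the EGFP array, and endothelial markers, 2 of 4, to 34.2 on the Pax6 array and 26.0 on the EGFP array, with none past 2-fold. The blood markers Ptprc, Aif1 and Itgam and the endothelial markers Pecam1 and Cdh5 were not well above background with either RNA. The part of these markers in the members' differences was not tested.

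Cdkn2c encodes p18Ink4c, an Ink4 inhibitor of Cdk4 and Cdk6. Probe 1, on chromosome 4 from 109037613 to 109037672 (minus strand, mm7, the build of the array design), gave a signal of 1795 on the Pax6 array and 477 on the EGFP array. Its difference was 1.70 ± 0.20, or 3.25-fold higher, and 0.717% of all genes were at least this high. Probe 2, from 109037591 to 109037652, gave 1572 on the Pax6 array and 379 on the EGFP array, a difference of 1.84 ± 0.20 or 3.57-fold. Both probes showed the same direction, but they share 40 bases and so are not independent readings of the transcript.

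The Ink4 genes Cdkn2a and Cdkn2b, which adjoin each other and not Cdkn2c, did not differ by 2-fold. Cdkn2a encodes p16Ink4a and, from an alternative first exon and reading frame, p19Arf, which inhibits Mdm2. Its probe (88678367 to 88678426, minus strand, mm7) carries the accession of transcript variant 1, and whether it reads 1 or both products was not tested. Over 9 spots it gave 3700 to 3934 (median 3858) on the Pax6 array and 2924 to 3641 (median 3441) on the EGFP array. These signals, before scaling, do not overlap, but the Pax6 array was the brighter as a whole (75th percentile 991, against 854 on the EGFP array). After scaling the difference was -0.04 ± 0.20, and the spots did not point one way, with 7 lower and 2 higher (SD 0.08). Cdkn2b encodes p15Ink4b, which TGF-beta induces in several cell types. It gave 22005 on the Pax6 array and 17091 on the EGFP array, a difference of 0.15 ± 0.20. The file gives no position for that probe.

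Cdkn1a encodes p21, the Cip/Kip inhibitor through which p53 halts the cycle. Its probe (chromosome 17, 27293819 to 27293878, plus strand, mm7) was printed in 10 spots. They ran from 1065 to 1114 (median 1095) on the Pax6 array and from 1566 to 1701 (median 1660) on the EGFP array. These signals, before scaling, did not overlap, but neither did those of Cdkn2a, Trp53 and Mdm2 probe 2, which were higher on the Pax6 array. The Pax6 array was also the brighter as a whole, with a 75th percentile of 991 against 854 on the EGFP array. Lack of overlap before scaling is thus not read as a result about these genes. How many other probes with several spots share this was not counted. The difference was -0.81 ± 0.20, or 1.76-fold lower, and all 10 spots were lower, from -0.87 to -0.77 (SD 0.03). Of all genes, 4.07% were at least this low. Spots of 1 array share the sample and its labelling, so their spread is not that between cultures.

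The other Cip/Kip genes gave small or unmeasurable differences. Cdkn1b encodes p27, which halts cells in the absence of growth signals. Its 3 probes lie on chromosome 6 (plus strand, mm7) and did not point one way. Probe 1 (134939519 to 134939578) gave 417 on the Pax6 array and 323 on the EGFP array, a difference of 0.16 ± 0.20. Probe 2 (134935407 to 134935465), in 10 spots, gave 26.0 to 37.1 (median 32.0) on the Pax6 array and 26.9 to 44.6 (median 36.1) on the EGFP array. Its difference was -0.41 ± 0.26, with 8 spots lower and 2 higher (SD 0.28), and the arrays overlap. Probe 3 (134937910 to 134937969) was not well above background, at 7.81 on the Pax6 array and 8.22 on the EGFP array. With the mean of the 2 measured probes, Cdkn1b was at -0.13, so no direction is given for it. Cdkn1c, the imprinted gene of p57 (chromosome 7, 139886128 to 139886187, minus strand, mm7), read 5.22 on the Pax6 array and 2.53 on the EGFP array, not well above background on either.

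Trp53 was within its error on both probes. Probe 1, on chromosome 11 from 69671206 to 69671265 (plus strand, mm7), gave 4206 to 4857 (median 4529) over 10 spots on the Pax6 array and 2950 to 3774 (median 3413) on the EGFP array. The difference after scaling was 0.19 ± 0.20, and all 10 spots were above 0, from 0.10 to 0.45 (SD 0.10). Probe 2, 9175 bases away (start 69662031, end 69662089), gave 1041 on the Pax6 array and 821 on the EGFP array, a difference of 0.13 ± 0.20. Both probes lay above 0 by no more than the measurement error.

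Mdm2 encodes the ubiquitin ligase that marks p53 for destruction. Probe 1 (chromosome 10, 117200593 to 117200652, minus strand, mm7) gave 2640 on the Pax6 array and 2129 on the EGFP array, a difference of 0.10 ± 0.20. Probe 2 (117204040 to 117204099) gave 369 to 418 (median 401) over 10 spots on the Pax6 array and 300.1 to 346 (median 325) on the EGFP array, a difference of 0.09 ± 0.20. The probes, 3447 bases apart, gave nearly the same value, and 9 of 10 spots of probe 2 were higher.

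**Figure D2:**
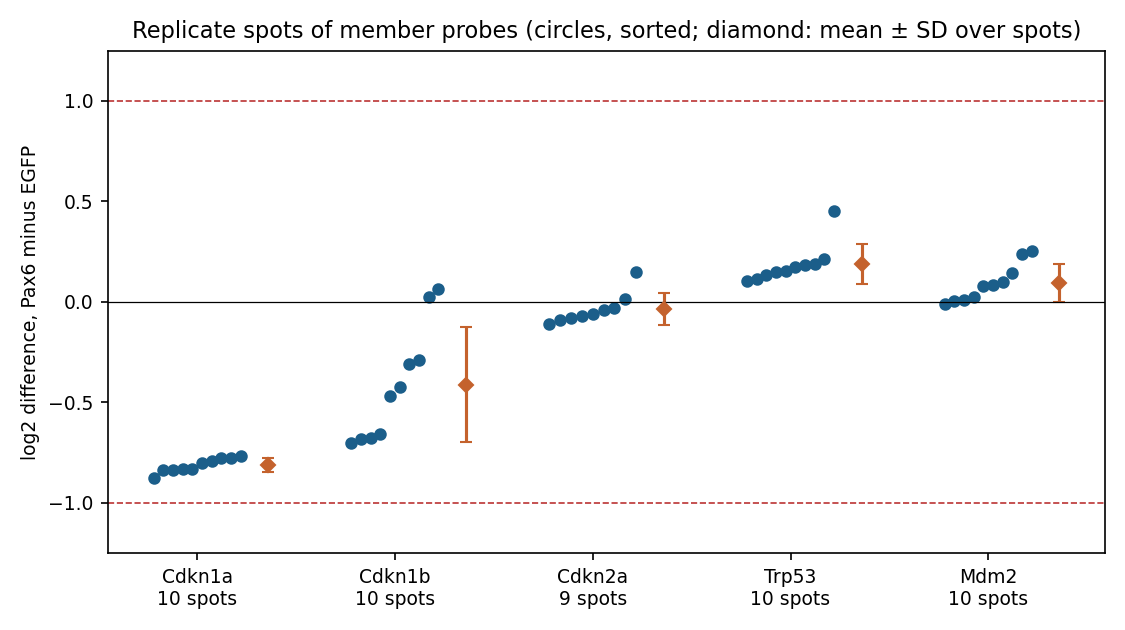
Log2 difference (Pax6 minus EGFP) of every spot of the member probes that were printed several times on the array, with 0 marked, 2-fold as dashed lines, and the mean ± SD over spots as a diamond. All 10 Cdkn1a spots lie below 0 and all 10 Trp53 spots above it, while the Cdkn2a and Cdkn1b spots lie on both sides.

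Eda2r encodes a receptor of the tumor necrosis factor family that binds the A2 form of ectodysplasin and is a p53 target. Probe 1, on chromosome X from 92661474 to 92661533 (minus strand, mm7), gave 180 on the Pax6 array and 34.6 on the EGFP array. The difference was 2.16 ± 0.24, or 4.48-fold higher, and 0.348% of all genes were at least this high. Probe 2 (92665889 to 92665948) gave 25.0 on the Pax6 array and 9.36 on the EGFP array, where it was not well above background, so that it was at least 2.08-fold higher. That bound sets the Pax6 signal against the EGFP array's lowest signal that counts as measured, which exceeds the dim probe's own. Probe 3 (92663336 to 92663395) read 7.73 on the Pax6 array and 2.66 on the EGFP array, not well above background on either. Probes 1 and 2 read higher on the Pax6 array, but the signals are dim and depend on how background is treated: under normexp correction, an alternative treatment of background, the difference was 1.11 for probe 1 and 0.26 for probe 2.

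Ccng1 encodes cyclin G1, a p53 target that takes part in the regulation of Mdm2. Probe 1 (chromosome 11, 40691782 to 40691841, minus strand, mm7) gave 3219 on the Pax6 array and 2792 on the EGFP array, a difference of -0.01 ± 0.20. Probe 2 (40693768 to 40693827) gave 1684 on the Pax6 array and 1697 on the EGFP array, a difference of -0.23 ± 0.20. Probe 1 lay close to 0, and probe 2 lay below it by slightly more than its error.

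**Figure D3:**
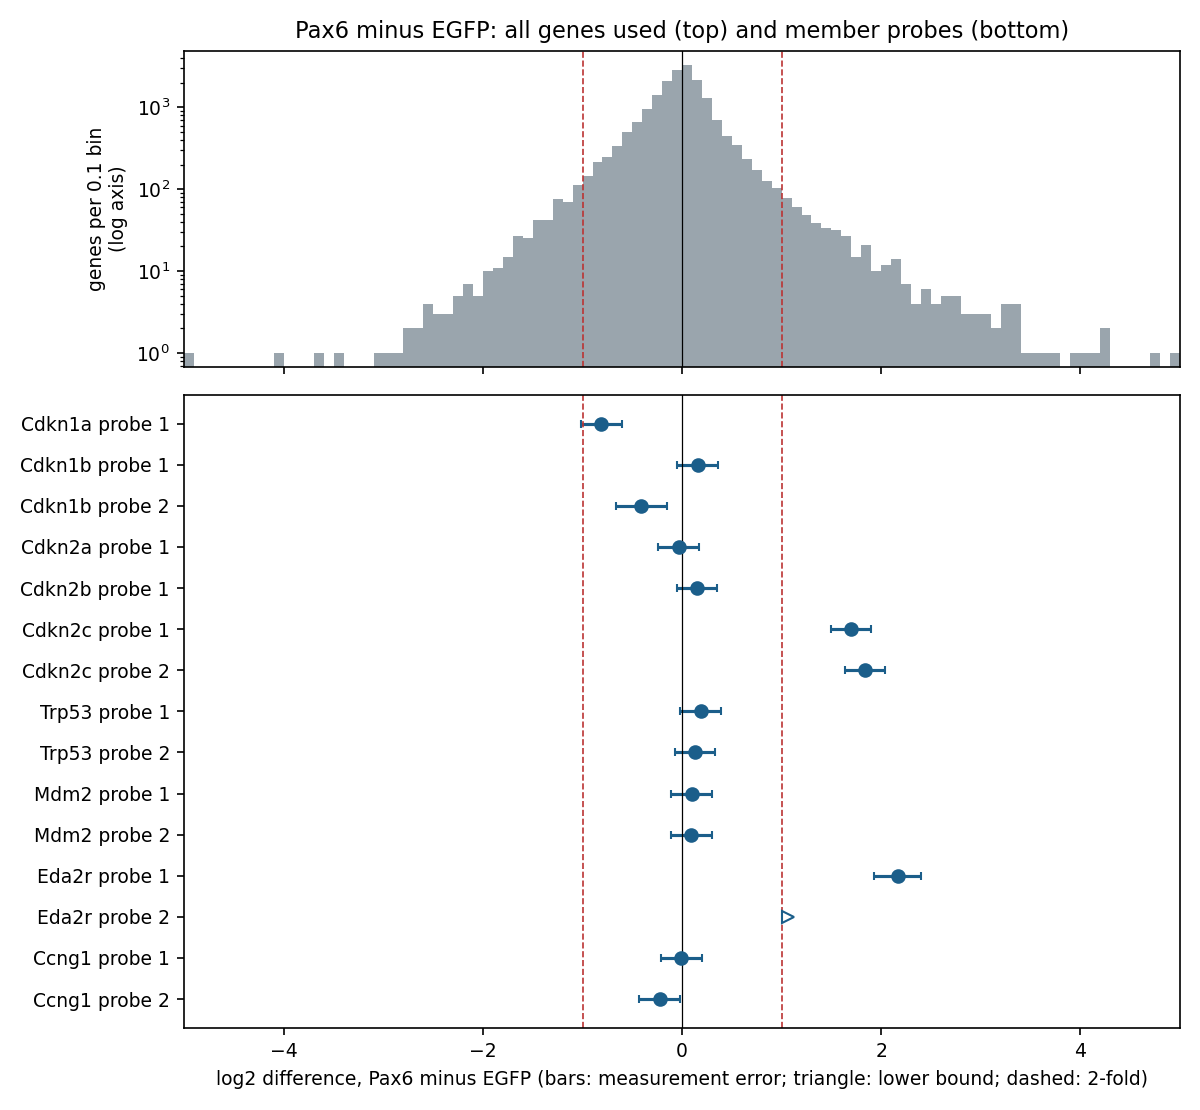
Log2 difference (Pax6 minus EGFP, horizontal axis) of all genes as a count per bin of 0.1 on a log axis (top) and of the member probes (bottom), with the measurement error as bars, 2-fold as dashed lines and a triangle for a lower bound. Both Cdkn2c probes, Eda2r probe 1 and the lower bound of Eda2r probe 2 lie beyond 2-fold on the Pax6 side, and Cdkn1a lies between 0 and 2-fold lower.

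Promoters are shown for the 3 members with the largest differences, Cdkn2c, Eda2r and Cdkn1a, since the p53 target Cdkn1a and the p53 target Eda2r lay on opposite sides. Sequences are the 250 bases before an annotated start in RefSeq, build GRCm38.p6, on the gene's strand, and 9 of the 10 members, all but Cdkn1c, were matched. Capitals mark matches, on either strand, to GGGCGG (the Sp1 box), CCAAT (the box of NF-Y), TATAAA (the TATA box), CACGTG (an E box), TTTCGCGC and TTTGGCGC (both E2f sites) and the p53 decamer consensus, and a match is only a description of letters. The windows are chr4:109666757-109667006 (minus strand) for the first start of Cdkn2c, chr4:109665373-109665622 (minus strand) for its second, chrX:97377210-97377459 (minus strand) for Eda2r, and chr17:29090729-29090978 and chr17:29093519-29093768 (plus strand) for the first and second start of Cdkn1a, which lie 2790 bases apart.
Cdkn2c first start: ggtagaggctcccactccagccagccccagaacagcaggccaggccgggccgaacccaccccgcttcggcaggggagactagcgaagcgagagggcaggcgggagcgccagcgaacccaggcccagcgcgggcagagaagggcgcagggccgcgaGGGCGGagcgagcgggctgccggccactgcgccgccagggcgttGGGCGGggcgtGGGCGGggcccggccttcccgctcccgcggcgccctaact
Cdkn2c second start: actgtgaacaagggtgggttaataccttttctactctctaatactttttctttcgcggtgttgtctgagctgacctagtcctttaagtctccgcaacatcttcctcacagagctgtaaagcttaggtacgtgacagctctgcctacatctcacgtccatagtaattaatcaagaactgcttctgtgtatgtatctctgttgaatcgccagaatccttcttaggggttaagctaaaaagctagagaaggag
Eda2r: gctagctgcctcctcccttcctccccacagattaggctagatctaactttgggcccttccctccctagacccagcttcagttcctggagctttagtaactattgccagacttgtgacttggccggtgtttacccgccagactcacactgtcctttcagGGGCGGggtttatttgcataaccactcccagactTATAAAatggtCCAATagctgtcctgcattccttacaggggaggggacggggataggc
Cdkn1a first start: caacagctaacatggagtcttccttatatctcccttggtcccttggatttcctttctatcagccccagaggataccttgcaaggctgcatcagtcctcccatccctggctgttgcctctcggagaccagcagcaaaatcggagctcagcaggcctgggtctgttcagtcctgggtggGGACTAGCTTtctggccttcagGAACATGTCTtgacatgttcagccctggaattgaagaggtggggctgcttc
Cdkn1a second start: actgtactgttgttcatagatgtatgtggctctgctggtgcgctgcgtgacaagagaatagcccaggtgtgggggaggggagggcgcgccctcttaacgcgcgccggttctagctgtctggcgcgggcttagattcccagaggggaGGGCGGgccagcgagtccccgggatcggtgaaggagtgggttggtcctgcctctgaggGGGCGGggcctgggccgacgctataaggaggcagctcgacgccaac

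The window of the first Cdkn2c start held GGGCGG 3 times, 95, 51 and 40 bases before it, with 77.2% GC and 29 CpG, where the median promoter has 52.0% GC and 6 CpG. The window of its second start held no match to any of these motifs, with 42.8% GC and 6 CpG. Which start these cells use was not measured. That of Eda2r held GGGCGG at 92, TATAAA at 58 and CCAAT at 47 bases before the start, with 53.2% GC. No p53 decamer match lay in these windows of Cdkn2c and Eda2r, which says only that these letters are not there. Before the first start of Cdkn1a the p53 decamer consensus matched at 73 and 51 bases. The match at 51 bases is followed by 10 bases with 1 mismatch to the consensus, giving the 20-base run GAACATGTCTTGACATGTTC, which starts at base 29090928 of chromosome 17. The match at 73 bases is followed by 10 bases with 7 mismatches. The windows of Trp53 (75 bases before the start), Mdm2 (186) and Ccng1 (185) also held a decamer match, so that 4 of 9 members (44.4%) had one. For these 3 genes the bases next to the match were not compared with the consensus. Of 27018 mouse promoters of the same length, 7.18% hold the decamer, 32.9% GGGCGG, 34.5% CCAAT, 13.0% TATAAA, 6.05% CACGTG, 0.255% TTTCGCGC and 0.437% TTTGGCGC. The members were chosen as p53 pathway genes, some of them as p53 targets, so their decamer share beside this background is no test. The measures also differ: a member counted with a match at any of its listed starts, and the background took only the first listed start of each gene.

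Other genes of the pathways were taken from 7 lists. All 30 further p53 target genes were measured, with a median of -0.05. Of them 12 lay above 0 and 18 below, beside 9064 and 9915 of all genes, and 0 passed 2-fold upward and 1 downward. The exception was Dram1, a lysosomal protein of autophagy, which gave 131 on the Pax6 array and 254 on the EGFP array, a difference of -1.16 ± 0.21 or 2.24-fold lower. The 1 of 30 past 2-fold lower stands beside 2.43% of all genes. At 1.5-fold, 3 of 30 targets were lower and 0 higher, beside 7.76% and 5.91% of all genes, so that the share lower is near the background. Btg2, an antiproliferative gene, gave 1021 on the Pax6 array and 1675 on the EGFP array (-0.93 ± 0.20), on 3 of 3 probes of the same sign. Ddb2, a DNA damage recognition gene named after its value was seen, gave 343 on the Pax6 array and 541 on the EGFP array (-0.87 ± 0.20). The cell death genes Bax (0.03), Bbc3 (-0.40) and Pmaip1 (-0.42) and the growth arrest and stress genes Gadd45a (0.20) and Zmat3 (0.19) were within 2-fold.

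No measured upstream regulator was past 2-fold, beside 4.77% of all genes. In this and the lists that follow, lists this short would hold few such genes at that share. A count of 0 is thus near the background and is not a result about these genes. Of 16 p53 family and regulator genes 14 were measured, with 0 higher and 0 lower and a median of 0.08. The p53 inhibitor Mdm4 was at -0.10, and the largest differences were those of Ppp1r13l (0.58), an inhibitor of p53, and Ppp1r13b (-0.50), an activator. All 18 regulators of the Ink4a-Arf-Ink4b locus were measured, with 0 higher, 0 lower and a median of 0.12. In this list the Polycomb genes Bmi1 and Ezh2, which repress the locus, were at 0.42 and 0.18, the repressor Tbx3 at -0.68 and Hmga2, a chromatin protein, at 0.54.

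Of 18 Cdks, cyclins, pocket proteins and E2f genes, 0 were at least 2-fold different in either direction and the median was 0.06. Ccnd1, the D-type cyclin that activates Cdk4 and Cdk6, gave 16181 on the Pax6 array and 8285 on the EGFP array, a difference of 0.75 ± 0.20 or 1.68-fold. Cdk6 gave 7973 on the Pax6 array and 4559 on the EGFP array, a difference of 0.59 ± 0.20. Cdk4, which Cdkn2c inhibits along with Cdk6, was at 0.12, within its error. Ccnd2 was at -0.22, Cdk2 at 0.16, Ccne1 at 0.23, Rb1 at -0.35, E2f1 at 0.05 and E2f5 at -0.61. The remaining Ink4 gene, Cdkn2d, was at 0.13.

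The lists downstream of the inhibitors were narrow. Of 15 E2f target genes of DNA replication, 0 were at least 2-fold different, with 13 above 0, 2 below and a median of 0.12. Over all genes, 9064 were above 0 and 9915 below. The largest were the ribonucleotide reductase gene Rrm2 (0.29) and the helicase gene Mcm3 (0.24), and the lowest value was -0.20. With errors near 0.20 and a scaling that moves all genes together, no shared direction is read from these signs. Of 9 genes for the turnover of Cip/Kip proteins, 0 differed by 2-fold and the median was 0.09, with Skp2, the ligase subunit that targets p27, at 0.12, its cofactor Cks1b at 0.18 and the scaffold Cul1 at 0.17. Of 7 ectodysplasin pathway genes 4 were measured, 0 differed by 2-fold and the median was 0.01. Its ligand gene Eda and the receptor gene Edar were not well above background with either RNA, while the receptor gene Tnfrsf19 was at 0.06 and the signalling adaptors Traf6 and Traf1 at -0.34 and 0.11. Of the genes named from the lists, Mdm4, Rb1, Skp2, Cul1 and Traf6 each had a measured probe of the opposite sign.

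**Figure D4:**
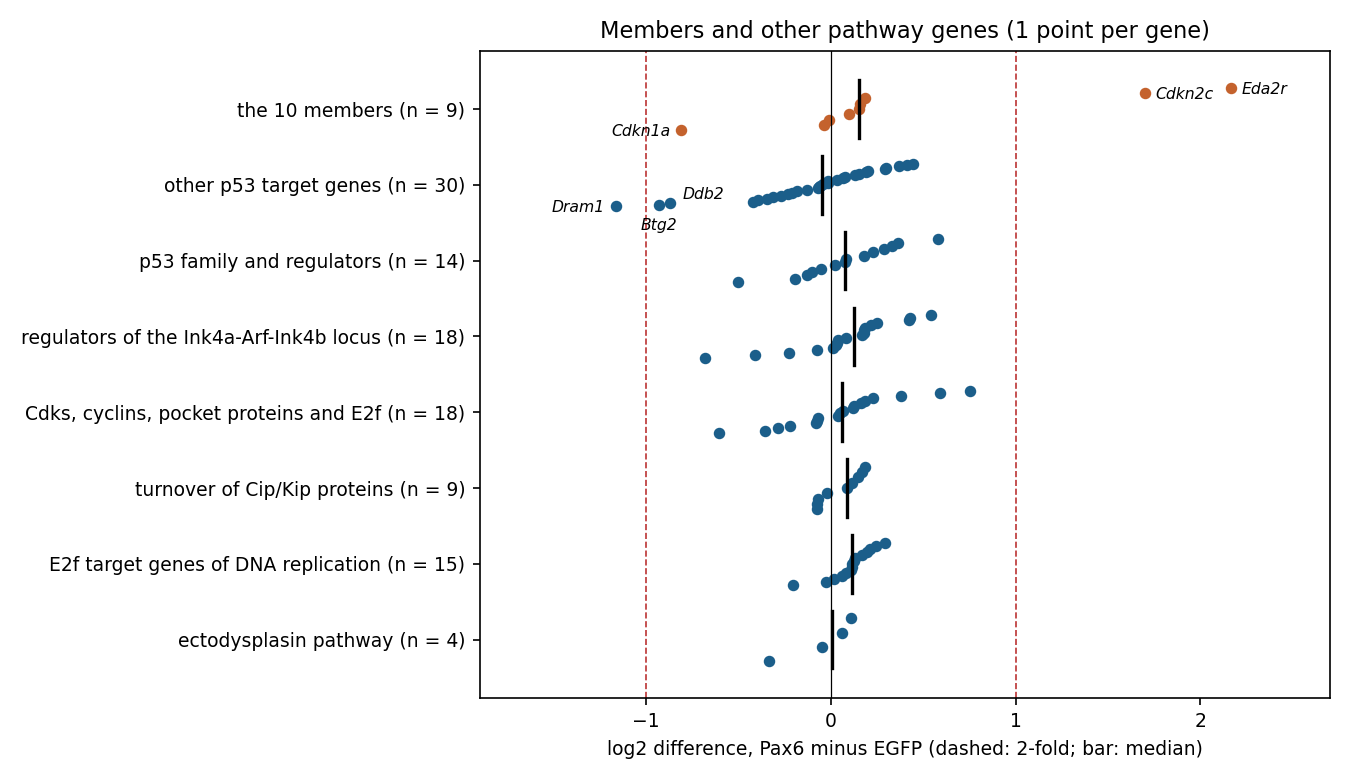
Log2 difference (Pax6 minus EGFP, horizontal axis) of each measured gene of the 10 members and of the 7 pathway lists, with the median of each as a bar and 2-fold as dashed lines. Beyond 2-fold lie only Cdkn2c and Eda2r among the members and Dram1 among the lists.

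The values of the members held under most ways of processing. Cdkn2c stayed between 1.59 and 1.78 and Cdkn1a between -0.81 and -0.73 under 11 alternatives, and Eda2r stayed beyond 2-fold, between 1.11 and 2.25. Not all of these could move a value. The deposited series table held the same intensities, and the filters left Cdkn2c and Cdkn1a as reported. Probe choice could not move Cdkn1a, which has 1 probe. The ranges thus rest mainly on scaling and background correction.

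**Figure D5:**
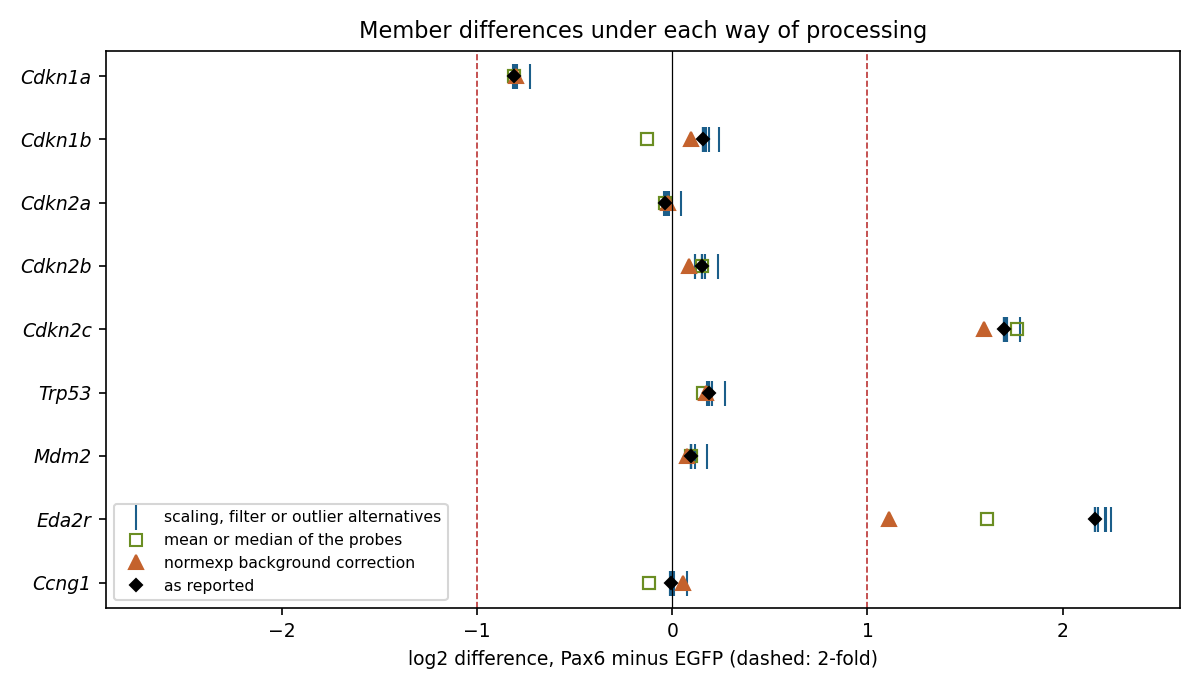
Log2 difference (Pax6 minus EGFP, horizontal axis) of the 9 measured members as reported and under the alternative ways of processing, with 2-fold as dashed lines. Cdkn2c and Eda2r stay beyond 2-fold under each, Cdkn1a stays within 2-fold, and the small differences of Cdkn1b, Cdkn2a and Ccng1 fall on either side of 0.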

How the data were processed

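Total RNA of the lines was labelled with Cy3 and hybridised to 1 Agilent 1-colour mouse array each, per the labels' protocols. Agilent Feature Extraction (10.7.3.1, named in the file headers) was the authors' software for reading the spots. Its intensity values were deposited after background subtraction and detrending within an array, without normalization between arrays, per the file headers. Taking log2 was a later step and not in the deposited values. The deposited flags (unit other) mark spots well above background, by 13 SDs of it, saturated spots and outliers. The deposited series table held the same intensity values as the scanner files.

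Left out were 96 outlier spots, which kept 43283 spots and 41168 probes. Signals were put on the log2 scale, minus each array's 75th percentile (991 on the Pax6 array, 854 on the EGFP array), and spots of a probe were averaged. A gene took its brightest probe well above background on at least 1 array; 17832 genes were measured on both arrays and 1419 entered as bounds (lowest signal well above background 9.30 on the Pax6 array, 10.3 on the EGFP array). The software's multiplicative error of 10% sets most of the error given, with a median of 0.20; the 245 probes with several spots had a median SD of the difference of 0.08. Accessions matched current symbols for 22951 probes and 18217 kept the array's names.

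With 1 array per group no test was made, and genes were counted at 2-fold. The members, the lists and the markers were chosen with earlier results of these data known. Named genes are the members, up to 4 genes past 2-fold in each list or otherwise its 2 largest, and a fixed set; Cdkn2d, Ddb2 and the 4 induced factors were added after values were seen. Alternatives, 14 in all, covered scaling, background correction with limma 3.58.1 (R 4.3.3), probe choice, filters, outliers and the rule of size. The steps were tested on simulated data, in which the changes were larger than that of Cdkn1a. They were put only into genes measured on both arrays and above a set level. Recovery of smaller changes, of bounds and of dimmer genes was not tested, and no spread between cultures was simulated. Python 3.11.15, pandas 2.3.3 and numpy 2.4.6 were used.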

Additional observations from a re-analysis of the deposited data

How the results depend on the processing

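The count of members at least 2-fold higher was 2 under all 14 alternatives, and the count at least 2-fold lower was 0 except under a 1.5-fold rule, where it was 1 (Cdkn1a). Of these alternatives, the deposited series table could not change a count, since it held the same intensities. The members' median stayed between 0.08 and 0.23. Eda2r moved to 1.11 under normexp correction and to 1.61 with the mean or median of its probes, and Cdkn1b to -0.13 with either. Cdkn2a (-0.04 to 0.05) and Ccng1 (-0.12 to 0.07) crossed 0 within their error. Over all genes, the count at least 2-fold different (919) was 285 under normexp correction (176 higher, 109 lower), 2539 with no filter (1307 and 1232), 2631 under a 1.5-fold rule (1137 and 1494) and 268 under a 3-fold rule (165 and 103), and between 714 and 922 otherwise. Scaling by the median gave 538 higher and 370 lower, against 452 and 467 as reported. Dim signals limit Eda2r, Cdkn1c and probes 2 and 3 of Cdkn1b. No paired analysis was possible because each group has 1 array, and for the same reason no array could be left out.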

Other observations

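Some genes next to members in the RefSeq order of GRCm38 were measured too, and those named here stood within 2-fold. Faf1, a Fas-associated factor next to Cdkn2c, gave 3056 on the Pax6 array and 2470.5 on the EGFP array, a log2 difference of 0.09. Srsf3, a splicing factor next to Cdkn1a, gave 757 on the Pax6 array and 546 on the EGFP array (0.26). Cdkn2c and Cdkn1a thus stood beside neighbours nearer to 0. Wrap53, which adjoins Trp53 on the opposite strand, gave 7459 on the Pax6 array and 4307 on the EGFP array (0.58), and Slc22a18, next to Cdkn1c, gave 47.1 on the Pax6 array and 25.3 on the EGFP array (0.68). Mtap, next to Cdkn2a, and Dmrta1, next to Cdkn2b, were at 0.20 and 0.33.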
